A study of Arabidopsis thaliana with 6 samples.

Results

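The genes described here are 51 of the 24193 genes in an expression table of Arabidopsis thaliana seedlings. They comprise 25 genes for structural proteins of the cell wall, 17 of them extensins, and 26 further genes of wall organization. Members were chosen by their annotation in the table, either the Molecular Function term for a structural constituent of the cell wall or the Biological Process term for organization of the plant-type wall. Of 75 rows with either term, 24 whose descriptions name expansins, xyloglucan endotransglucosylases or pectin were dropped, which left 28 members with the first term, 19 of them with both, and 23 with the second term alone. The set was selected with the difference between lon1-1 and wild type already known, so its counts describe these genes and nothing is read from them as support.

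Extensins are glycoproteins rich in hydroxyproline that are secreted into the wall and cross-linked there into a network. Their backbone repeats a serine followed by several prolines, where prolyl hydroxylases and sugar transferases add arabinose and galactose, and tyrosines between the repeats form the cross-links. Several extensins are known from root hairs, whose walls they help to build, and others from young seedlings and wounded tissue.

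The tested seedlings carried lon1-1, a single mutant allele of the gene for LON1, a protease of the mitochondrial matrix, and the wild type was their Col-0 background (wt). Both were seedlings that stood upright on plates in the dark for 6 days. There were 3 lon1-1 and 3 wt libraries, lettered A, B and C, and described by the submitters as independent biological replicates. The labels' genotype field reads Col-0 for all 6, so genotype was taken from the sample titles. LON1 itself stood at 2.67, 2.61 and 2.79 FPKM in the lon1-1 libraries, below all wt libraries (4.69, 4.7 and 4.69 FPKM). FPKM corrects fragment counts for transcript length and library depth, so levels can be compared between genes. Estimated depth was 32750000 to 33250000 fragments in lon1-1 and 31000000 to 31500000 fragments in wt. In bulk RNA of seedlings, fewer cells of a type and less RNA per cell cannot be told apart. The markers of root hairs, other root cells and xylem used below were above 0 in all 6 libraries.

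The lon1-1 libraries lay apart for these transcripts, with lon1-1 B high and lon1-1 C low. Lon1-1 B was the highest of the 3 lon1-1 libraries in 16 of 17 extensins, against 29.7% of all tested genes. Its median distance from the mean of the other 2 lon1-1 libraries was 0.412 on the log2 scale over the extensins. Over all tested genes it was -0.01. The same distance of lon1-1 C was -0.359 over the extensins and 0.002 over all tested genes. Among wt libraries, wt C was highest in 14 of 17 extensins, against 28.1% of all tested genes, with a median distance of 0.154. The same order appeared outside the set, in tested genes whose coding sequence was rich in proline codons. With members left out, the median distance of lon1-1 B was 0.105 in 40 genes with 20 to 30% proline codons and 0.359 in 6 genes with more than 30%, but 0.006 in 327 genes with 10 to 15%. For lon1-1 C these medians were -0.178, -0.286 and -0.029. What set the libraries apart was not tested, and values without lon1-1 B are given where they change a call.

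**Figure D1:**
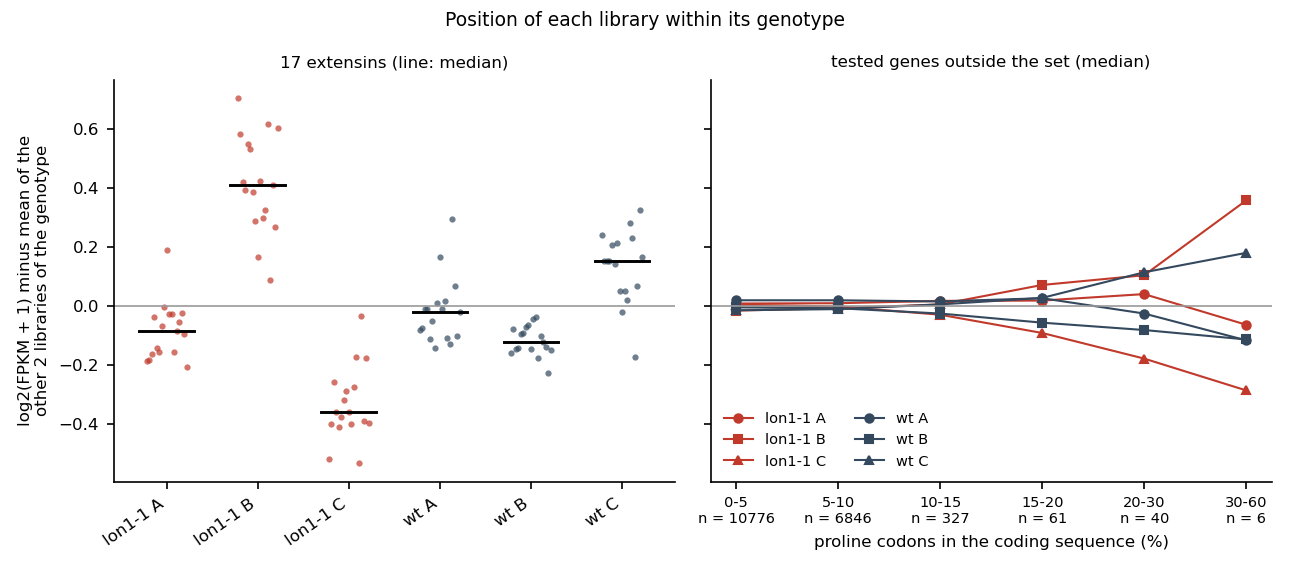
Left, each point is 1 of the 17 extensins and shows log2(FPKM + 1) in a library minus the mean of the other 2 libraries of its genotype, with the median as a line (0.412 in lon1-1 B, -0.359 in lon1-1 C, 0.154 in wt C). Right, the medians of the same measure for tested genes outside the set, by the share of proline codons: all libraries lie near 0 below 15% and move apart above it, with lon1-1 B highest among 6 genes with more than 30%.

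Most extensin transcripts were higher in lon1-1. Of the 17 extensins, 14 were higher, AT1G26240 was lower, and AT2G43150 and AT1G26250 did not pass the test, with a median log2 fold change of 1.30. The test was limma on log2(FPKM + 1) over the 18308 genes that reached 1 FPKM in 3 or more libraries, with an adjusted p threshold of 0.05. Each log2 fold change is the lon1-1 mean minus the wt mean on that scale, which understates changes of low genes, whereas folds are ratios of mean FPKM. Among all 18308 genes 77.0% were called, 44.7% higher and 32.3% lower, with a median log2 fold change of 0.08. Of the 51 members, 43 were tested, and 28 were higher, 5 lower and 10 not called, so that 76.7% were called. The other 8 members stayed at or below 0.2 FPKM in every library. The lon1-1 and wt libraries did not overlap in 34 of the 43, with lon1-1 above in 29 and below in 5, where 79.1% of all tested genes did not overlap. Over the tested members the median log2 fold change was 0.56. Of these 43, EPR1 and AT1G21313 reached 1 FPKM in lon1-1 libraries only and AT1G26240 in wt libraries only, so these 3 entered the test through the genotype in which they were high.

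**Figure D2:**
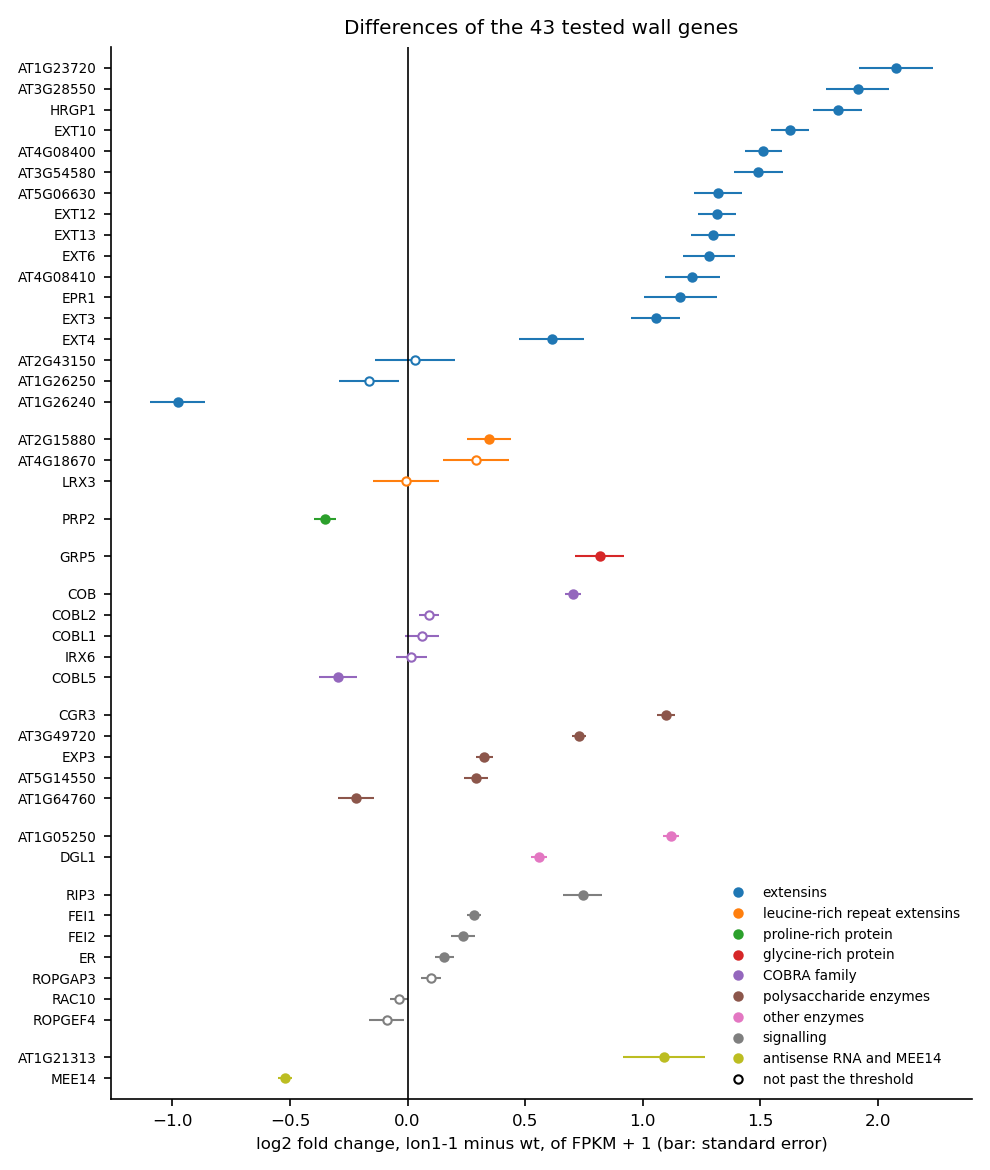
Log2 fold change (lon1-1 minus wt, FPKM + 1) of the 43 tested members with its standard error from limma, grouped by class, with filled symbols for genes past the adjusted p threshold of 0.05. Most extensins lie between 1.06 and 2.08, whereas the other classes spread around 0 with fewer genes above 1.

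The repeats that name the family are visible in the coding sequences of the genes on which the comparison turns. The stretches below are 150 bases each of coding exon, read 5′ to 3′ on the coding strand from the TAIR10.1 assembly with RefSeq gene models. Capitals mark a serine codon followed by 4 proline codons. EXT3 (codons 51 to 100, chr1:7454689-7454838, minus strand) and AT1G23720 (codons 35 to 84, chr1:8388685-8388834, plus strand) were both higher in lon1-1, AT1G23720 with the largest log2 fold change of the set. AT2G43150 (codons 31 to 80, chr2:17945983-17946132, plus strand) and AT1G26250 (codons 64 to 113, chr1:9084092-9084241, plus strand) did not pass the test. AT4G08400 (codons 112 to 161, chr4:5324859-5325008, minus strand) and AT4G08410 (codons 130 to 179, chr4:5340673-5340822, minus strand) are shown because these stretches are identical.
EXT3: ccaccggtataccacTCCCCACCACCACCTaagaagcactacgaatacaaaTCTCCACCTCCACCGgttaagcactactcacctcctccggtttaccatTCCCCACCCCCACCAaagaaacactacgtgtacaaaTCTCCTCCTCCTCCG
AT1G23720: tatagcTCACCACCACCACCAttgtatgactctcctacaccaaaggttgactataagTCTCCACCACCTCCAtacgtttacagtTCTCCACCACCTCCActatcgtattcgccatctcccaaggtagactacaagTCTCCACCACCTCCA
AT2G43150: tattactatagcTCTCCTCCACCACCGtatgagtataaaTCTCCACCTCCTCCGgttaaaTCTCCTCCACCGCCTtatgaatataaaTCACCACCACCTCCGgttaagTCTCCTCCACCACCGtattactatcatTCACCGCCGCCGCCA
AT1G26250: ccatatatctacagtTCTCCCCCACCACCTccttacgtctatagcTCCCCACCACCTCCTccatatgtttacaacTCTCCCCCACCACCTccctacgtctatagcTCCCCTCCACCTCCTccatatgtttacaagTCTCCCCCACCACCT
AT4G08400: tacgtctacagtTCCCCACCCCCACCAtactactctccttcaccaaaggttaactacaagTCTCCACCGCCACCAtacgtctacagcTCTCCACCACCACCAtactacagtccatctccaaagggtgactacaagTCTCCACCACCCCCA
AT4G08410: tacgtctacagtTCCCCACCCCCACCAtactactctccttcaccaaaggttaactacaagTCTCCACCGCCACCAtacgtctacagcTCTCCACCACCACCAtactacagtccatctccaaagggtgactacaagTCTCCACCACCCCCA

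Over whole coding sequences of the extensins, proline made up 22.4% of codons in EXT4 and up to 45.9% in AT1G26240. Such runs of a serine and 4 prolines numbered between 9 in EXT4 and 70 in AT3G28550, and EPR1 alone of the 17 extensins had none. When every stretch of 100 bases was compared with all other transcripts of the annotation, shared ones were found in 4 of the 17 extensins. They made up 43.5% of AT4G08400 and 28.7% of AT4G08410, each with the other, and 0.1% of EXT6 and of AT5G06630. Levels of AT4G08400 and AT4G08410 are therefore uncertain one against the other.

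The most abundant extensins were EXT4, EXT3 and AT2G43150. EXT4, an extensin gene known to respond to wounding, had 568, 809 and 513 FPKM in lon1-1 A, B and C, against 389.9, 389 and 433 FPKM in wt A, B and C. All lon1-1 libraries were above all wt libraries, with the B library far above A and C (log2 fold change 0.61, SE 0.137, adjusted p = 0.00228, limma). EXT3, which is needed for the cell plate in the embryo, had 526, 690.0 and 503 FPKM in lon1-1, against 271, 254 and 293 FPKM in wt. Its groups lay further apart (2.1-fold, log2 fold change 1.06, SE 0.104, adjusted p = 7.87e-06). AT2G43150, annotated as a proline-rich extensin-like protein, had 496, 749.7 and 425 FPKM in lon1-1, against 509, 491 and 591 FPKM in wt. Here the groups overlapped, with lon1-1 B above and lon1-1 C below every wt library (log2 fold change 0.03, SE 0.17, adjusted p = 0.868). Without lon1-1 B the difference was -0.20 (SE 0.0846, adjusted p = 0.054). In wt the 3 genes had separate levels, with AT2G43150 highest, EXT4 next and EXT3 lowest. In lon1-1 their ranges overlapped across libraries, but within each lon1-1 library EXT4 was the highest of the 3. EXT3 stood above AT2G43150 in lon1-1 A and C and below it in lon1-1 B.

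Below them stood 3 genes with many repeats. AT3G54580, with 68 serine-proline runs, had 212, 259 and 183 FPKM in lon1-1, against 75.7, 71.1 and 81.7 FPKM in wt (log2 fold change 1.49, SE 0.105, adjusted p = 6.98e-07). AT3G28550, with 70 runs, had 125, 172 and 110.1 FPKM in lon1-1, against 32.8, 33.1 and 38.2 FPKM in wt (1.91, SE 0.135, adjusted p = 7.05e-07). HRGP1, a hydroxyproline-rich glycoprotein with 51 runs, had 94.8, 117 and 84.2 FPKM in lon1-1, against 25.02, 25.9 and 29.7 FPKM in wt (1.83, SE 0.105, adjusted p = 1.66e-07). In all 3 the lowest lon1-1 library was more than 2-fold above the highest wt library. On the log2(FPKM + 1) scale the largest difference among the extensins was that of AT1G23720, with 38.2, 53.2 and 30.8 FPKM in lon1-1, against 8.1, 8.22 and 9.74 FPKM in wt. This was 4.69-fold (log2 fold change 2.08, SE 0.157, adjusted p = 1.18e-06), and 3.97-fold without lon1-1 B. By the ratio of means the low genes EPR1 (7.76-fold higher) and AT1G26240 (8.77-fold lower) differed more.

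A further 7 extensins at lower levels were all higher in lon1-1. EXT10 had 34.6, 40.3 and 30.7 FPKM in lon1-1, against 10.8, 10.5 and 10.8 FPKM in wt (log2 fold change 1.63, SE 0.0799, adjusted p = 5.62e-08). Its neighbour AT5G06630 had 22.6, 28.5 and 22.4 FPKM in lon1-1, against 8.67, 8.37 and 10.6 FPKM in wt (1.32, SE 0.101, adjusted p = 1.25e-06). In both, the groups were well apart. EXT12 had 31.7, 36.4 and 27.7 FPKM in lon1-1, against 12.2, 11.8 and 12.5 FPKM in wt (1.32, SE 0.0809, adjusted p = 2.67e-07). EXT13, the only extensin with lon1-1 B not on top, had 31.0, 30.6 and 23.8 FPKM in lon1-1, against 11.8, 10.11 and 10.8 FPKM in wt (1.30, SE 0.0941, adjusted p = 8.52e-07). EXT6 had 27.7, 34.3 and 23.1 FPKM in lon1-1, against 10.9, 10.7 and 11.2 FPKM in wt (1.28, SE 0.11, adjusted p = 2.82e-06). The ranges of these 3 genes overlapped across lon1-1 libraries, and in wt EXT12 lay above EXT6 while EXT13 overlapped both. Within every single library EXT12 was the highest of the 3. AT4G08400 had 21.1, 22.5 and 21.2 FPKM in lon1-1, against 8.07, 6.48 and 6.31 FPKM in wt (1.51, SE 0.0772, adjusted p = 7.29e-08). Its close copy AT4G08410 had 6.61, 8.3 and 5.42 FPKM in lon1-1, against 2.43, 2.12 and 2.43 FPKM in wt (1.21, SE 0.117, adjusted p = 6.95e-06). Both were higher in all lon1-1 libraries. Their shared sequence leaves the ratio between them uncertain, and the calls of both genes may not be independent.

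Summed over the 17 extensins, FPKM came to 2259.7, 3086.9 and 2026.1 in lon1-1, against 1406.3, 1361.8 and 1573.5 in wt, 1.7-fold and 1.48-fold without lon1-1 B. EXT4, EXT3 and AT2G43150 made up most of these sums. The other 14 summed to 670.5, 838.6 and 585.0 FPKM in lon1-1, against 236.2, 227.4 and 257.0 FPKM in wt, which was 2.91-fold and 2.61-fold without lon1-1 B. With lon1-1 B left out, 14 extensins were called higher and AT1G26250 was called lower beside AT1G26240. With any other library left out, 14 were higher and 1 was lower.

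**Figure D3:**
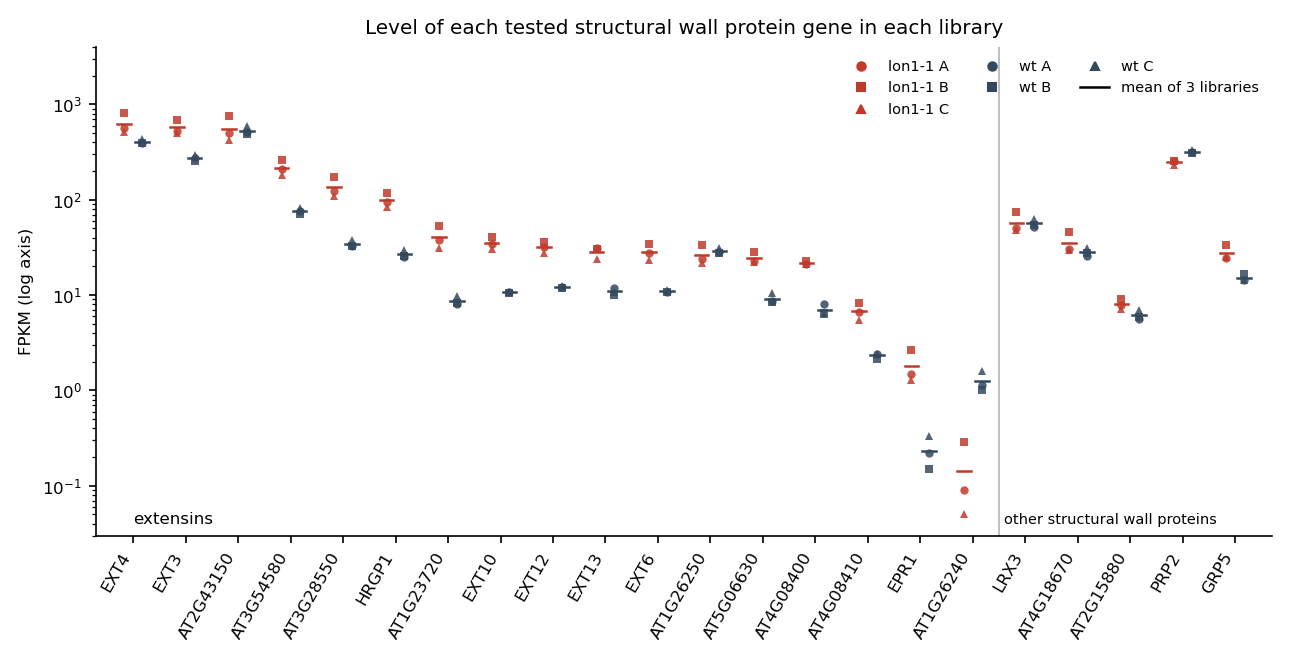
FPKM on a log axis of the 22 tested structural wall protein genes, with lon1-1 (red) left of wt (blue), 1 symbol per library and a line at the mean of 3 libraries. The red symbols lie above the blue ones in most extensins (526, 690.0 and 503 against 271, 254 and 293 FPKM in EXT3), AT1G26240 is the reverse, and squares mark lon1-1 B as the highest red symbol in nearly all.

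Of the remaining 3 extensins, AT1G26250 did not pass, AT1G26240 was lower and EPR1 was higher at a low level. AT1G26250 had 24.0, 33.3 and 21.6 FPKM in lon1-1, against 28.4, 27.9 and 31.1 FPKM in wt. Lon1-1 B lay above and lon1-1 A and C below every wt library (log2 fold change -0.17, SE 0.127, adjusted p = 0.256). Without lon1-1 B it was called lower (-0.34, SE 0.0608, adjusted p = 0.000713). AT1G26240, which lies 4191 bases from AT1G26250 on chromosome 1 and is read in the opposite direction, had 0.09, 0.29 and 0.05 FPKM in lon1-1, against 1.14, 1.02 and 1.61 FPKM in wt (-0.98, SE 0.117, adjusted p = 3.23e-05). With 25.7 to 27.6 fragments estimated for each FPKM in 1 kilobase, the lon1-1 values rest on few fragments. EPR1, an extensin-like gene of seed germination, had 1.5, 2.64 and 1.29 FPKM in lon1-1, against 0.22, 0.15 and 0.33 FPKM in wt (1.16, SE 0.155, adjusted p = 7.09e-05). It was above all wt libraries in each lon1-1 library.

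Of the 17 extensins, 8 form 4 pairs of neighbouring loci. In 3 of the pairs both genes were higher in lon1-1: AT3G54580 with HRGP1 (2208 bases apart on chromosome 3), AT4G08400 with AT4G08410 (13444 bases apart on chromosome 4), and AT5G06630 with EXT10 (1742 bases apart on chromosome 5). Because AT4G08400 and AT4G08410 share sequence, their calls may not be independent. In the pair of AT1G26240 and AT1G26250 neither was higher.

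That pair also differed in its repeats, a feature noticed after the values were seen. In AT1G26250 all 28 serine-proline runs had at least 5 prolines, and in AT1G26240 40 of 41 did. In the printed stretch of AT1G26250, every capitalised run but the last, which ends the stretch, is followed by a further proline codon. Of the 19 tested genes with at least 10 such runs, only LRX3 had 5 prolines in more than 50% of runs beside these 2, with 15 of 28. The log2 fold changes of these 3 genes lay between -0.98 and -0.01, and none was called higher. The lowest and only called of them, AT1G26240, had entered the test through wt alone, so that it could only be low in lon1-1. AT1G26250 and LRX3 were not called, and LRX3 changed sign when some single libraries were left out, so the 3 genes had no common direction. AT4G18670, which has fewer runs, had 5 prolines in 6 of 8. Its log2 fold change was 0.29 and it was not called either (adjusted p = 0.0862, limma). In the other 16, the share was 0 to 36.4%, and 15 were called higher, with AT2G43150 not called. Over all tested genes 44.7% were higher. Of the 15, 13 were members already described above, in a set chosen with the difference known. The 16 included 2 genes outside the set, LRX1 and LRX2, leucine-rich repeat extensins known from root hairs. LRX1 averaged 17.5 ± 2.6 FPKM in lon1-1 and 7.44 ± 0.332 FPKM in wt (SD, n = 3 each), and LRX2 averaged 33.8 ± 6.96 FPKM in lon1-1 and 23.3 ± 1.98 FPKM in wt (SD, n = 3 each). Their log2 fold changes were 1.13 (adjusted p = 1.49e-06) and 0.50 (adjusted p = 0.00313, limma). A further 4 genes with at least 10 runs were too low to be tested. AT5G19810, outside the set, had 5 prolines in 13 of 17 runs, with 0.69, 0.77 and 0.35 FPKM in lon1-1, against 0.81, 1.03 and 0.82 FPKM in wt. AT3G19020 had them in 5 of 24 runs and was also below wt, at 0.01, 0.02 and 0 FPKM in lon1-1, against 0.05, 0.13 and 0.13 FPKM in wt. AT4G33970 (4 of 14 runs) and AT1G49490 (1 of 14 runs, outside the set) overlapped between the genotypes. The division at 50% of runs was chosen with these values in view, and the pattern is a description only.

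**Figure D4:**
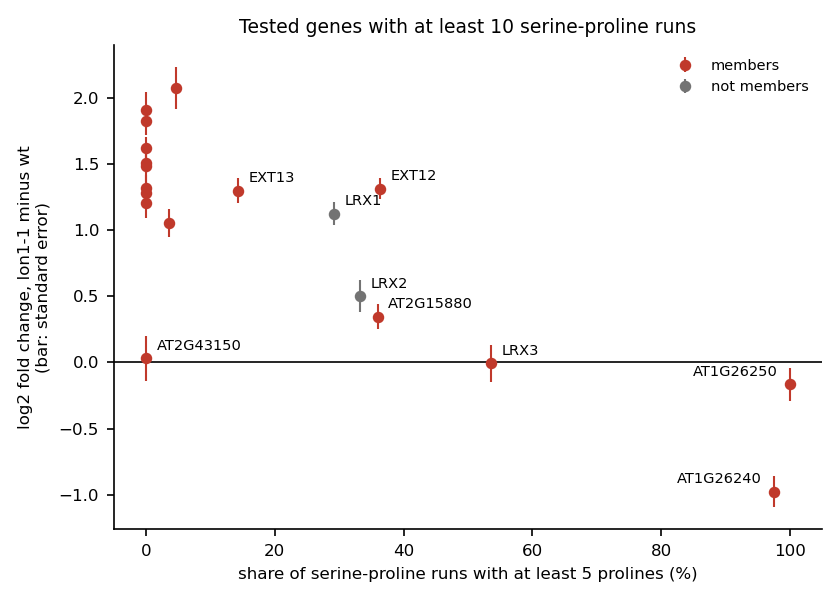
Each point is 1 of the 19 tested genes with at least 10 serine-proline runs, placed by the share of runs with at least 5 prolines and by its log2 fold change (lon1-1 minus wt) with its standard error. The 3 genes above 50% lie at or below 0, and those below 50% lie between 0.03 and 2.08. AT4G18670, with 8 runs, is not plotted.

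Outside the extensins, 5 structural genes were tested, and AT2G15880 and GRP5 were higher, PRP2 was lower and 2 did not pass. Over all 25 structural genes, 22 were tested, of which 16 were higher, 2 lower and 4 not called. Of the 22, 72.7% were higher and 9.09% lower, against 44.7% and 32.3% of all tested genes. LRX3 and 5 leucine-rich repeat family proteins carry the same wall term as the extensins. LRX proteins anchor in the wall by an extensin part and bind RALF peptides by their leucine-rich repeats. LRX3 had 49.98, 73.7 and 47.6 FPKM in lon1-1, against 52.3, 54.5 and 62.5 FPKM in wt, so the groups overlapped (log2 fold change -0.01, SE 0.14, adjusted p = 0.969). Without lon1-1 B it was called lower (-0.20, SE 0.0679, adjusted p = 0.023). AT4G18670 had 30.4, 45.7 and 29.5 FPKM in lon1-1, against 25.5, 27.8 and 31.1 FPKM in wt, and did not pass (0.29, SE 0.142, adjusted p = 0.0862). It was called higher without lon1-1 C (0.40, adjusted p = 0.0301), and stood at 0.09 without lon1-1 B. AT2G15880 had 7.89, 9.18 and 7.23 FPKM in lon1-1, against 5.61, 5.83 and 7.02 FPKM in wt, and was higher (0.35, SE 0.0928, adjusted p = 0.00651). The other 3, AT3G19020, AT4G33970 and AT5G25550, were at or below 0.13 FPKM in all libraries and were not tested.

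The proline-rich protein gene PRP2 went against most extensins. It had 257, 257 and 233 FPKM in lon1-1, against 316, 306 and 331 FPKM in wt, with all lon1-1 libraries below (log2 fold change -0.35, SE 0.0464, adjusted p = 6.92e-05). Its coding sequence has 20.2% proline codons but no run of a serine and 4 prolines. GRP5, a glycine-rich wall protein with 0.6% proline codons, had 24.3, 33.4 and 25.3 FPKM in lon1-1, against 14.5, 16.47 and 14.5 FPKM in wt. It was higher (0.82, SE 0.104, adjusted p = 5.05e-05), and lon1-1 B was highest here too.

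The 26 members that are not structural proteins had 21 tested, with 12 higher, 3 lower and 6 not called, and a median log2 fold change of 0.24. The share called was 71.4% and the share higher 57.1%, near the 77.0% and 44.7% of all tested genes. In contrast to the extensins, lon1-1 B did not stand apart in them, with a median distance of -0.046 from lon1-1 A and C. Below, the 12 called members with the largest absolute log2 fold change and a mean of at least 5 FPKM are given with their levels, and the others more briefly.

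COBRA proteins are held at the cell surface by a lipid anchor, and COB itself is needed for the orientation of cellulose in growing root cells. COB had 238, 242 and 233 FPKM in lon1-1, against 152, 142 and 142 FPKM in wt (log2 fold change 0.70, SE 0.0354, adjusted p = 6.74e-08), and the groups were far apart. COBL5 was lower, with 7.04, 5.47 and 6.01 FPKM in lon1-1, against 8.37, 7.38 and 7.61 FPKM in wt (-0.30, SE 0.0814, adjusted p = 0.00742). Its locus overlaps AT5G60960 on the same strand, so its level is uncertain. COBL2, COBL1 and IRX6, the last of which acts in secondary walls, did not pass, with log2 fold changes from 0.02 to 0.09. Without lon1-1 B, COBL2 was called higher (0.12, SE 0.0447, adjusted p = 0.0378, limma). COBL6 was listed at 0 in each lon1-1 library and at 0.05 to 0.1 FPKM in wt, and was not tested.

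Of 5 tested genes of wall polysaccharides, 4 were higher, or 80.0% against 44.7% of all tested genes. CGR3, a Golgi methyltransferase of pectin synthesis, had 59.3, 57.1 and 59.3 FPKM in lon1-1, against 27.9, 25.5 and 27.0 FPKM in wt (log2 fold change 1.10, SE 0.0393, adjusted p = 6.16e-09). AT3G49720, annotated in the table with methyltransferase activity and pectin synthesis, averaged 143 ± 2.63 FPKM in lon1-1 and 86.0 ± 1.17 FPKM in wt (SD, n = 3 each; 0.73, adjusted p = 1.4e-08). Both were above every wt library in every lon1-1 library. EXP3, an expansin that the description filter kept because its row names a barwin-like protein, averaged 208 ± 3.69 FPKM in lon1-1 and 166 ± 6.01 FPKM in wt (0.33, adjusted p = 1.3e-05). The glycosyltransferase family gene AT5G14550 averaged 16.8 ± 1.18 FPKM in lon1-1 and 13.5 ± 0.141 FPKM in wt (0.29, adjusted p = 0.000509). AT1G64760, a glycosyl hydrolase, was lower, at 7.31 ± 0.906 FPKM in lon1-1 and 8.65 ± 0.471 FPKM in wt (-0.22, adjusted p = 0.0256). This call was lost with no filter on low values (adjusted p = 0.0515, limma), without lon1-1 A, without lon1-1 B and without wt B, with log2 fold changes from -0.22 to -0.15. AT59 and the transcription factor gene MYB87, a member among the signalling genes, stayed at or below 0.05 FPKM.

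Both tested enzymes of other kinds were higher. The peroxidase gene AT1G05250 had 158, 158 and 165 FPKM in lon1-1, against 70.8, 75.7 and 73.2 FPKM in wt (log2 fold change 1.12, SE 0.0346, adjusted p = 2.4e-09). All of its 100-base stretches also occur in AT1G05240, so its level is uncertain. DGL1, a subunit of the enzyme that attaches sugar chains to new secreted proteins, averaged 65.8 ± 1.67 FPKM in lon1-1 and 44.3 ± 1.12 FPKM in wt (SD, n = 3 each; 0.56, adjusted p = 2.42e-07). Of 7 tested signalling genes, 4 were higher and 3 did not pass, or 57.1% higher against 44.7% of all tested genes. FEI1 and FEI2 are receptor-like kinases that act in wall synthesis of the root. FEI1 averaged 62.0 ± 0.439 FPKM in lon1-1 and 50.8 ± 1.08 FPKM in wt (0.28, adjusted p = 1.45e-05), and FEI2 averaged 22.5 ± 0.681 FPKM in lon1-1 and 19.0 ± 1.2 FPKM in wt (0.24, adjusted p = 0.00153). The receptor kinase gene ER and RIP3, a partner of ROP proteins that shapes xylem walls, were higher too, by log2 fold changes of 0.16 and 0.74. RIP3 was low, at 2.75 ± 0.378 FPKM in lon1-1 and 1.23 ± 0.0577 FPKM in wt. RAC10, ROPGAP3 and ROPGEF4, which belong to the ROP switch, had log2 fold changes of -0.04, 0.10 and -0.09.

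The last 4 members carry wall terms without coding for a known wall protein. MEE14, whose row also lists the protein of the next locus AT2G15880, was lower, at 106 ± 1.77 FPKM in lon1-1 and 153 ± 2.67 FPKM in wt (SD, n = 3 each; log2 fold change -0.52, adjusted p = 1.48e-07, limma). AT1G21313, antisense to EXT3, had 1.54, 2.87 and 1.32 FPKM in lon1-1, against 0.2, 0.3 and 0.51 FPKM in wt (1.09, adjusted p = 0.000252). Within lon1-1 its libraries had the same order as those of EXT3, an order that most extensins shared. Within wt the orders of AT1G21313 and EXT3 differed, with wt C highest in both. The libraries kept strand, but whether counting did is not given in the sources used here, so fragments of AT1G21313 and EXT3 cannot be told apart. AT5G06645 and AT1G26255, antisense to EXT10 and AT1G26250, stayed at or below 0.2 FPKM.

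Of 12 listed genes that modify extensins, 10 were tested, and 6 were higher and 1 lower, where 44.7% and 32.3% of all tested genes were. Their median log2 fold change was 0.25, and nothing particular to the list is read from these counts. AT3G01720, the transferase that adds galactose to serine, averaged 42.8 ± 0.355 FPKM in lon1-1 and 28.2 ± 0.557 FPKM in wt (0.59, adjusted p = 1.13e-07). P4H5, a prolyl hydroxylase needed for root hair growth, averaged 55.1 ± 0.551 FPKM in lon1-1 and 39.6 ± 1.06 FPKM in wt (0.47, adjusted p = 6.25e-07). AT5G25265, annotated as like a hydroxyproline arabinosyltransferase, was lower, at 62.3 ± 2.86 FPKM in lon1-1 and 90.2 ± 1.01 FPKM in wt (-0.53, adjusted p = 7.14e-07). Its relative AT5G13500 was higher (0.27), and AT2G25260 was not called (0.11).

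LRX proteins act with the receptor kinase FER. Of 6 tested genes for FER, its co-receptor LLG1 and RALF peptides, 1 was higher and 4 were lower, or 66.7% lower against 32.3% of all tested genes. The median log2 fold change was -0.19, and RALF4 was not analysed here. RALF23 averaged 102 ± 5.64 FPKM in lon1-1 and 144 ± 3.97 FPKM in wt (SD, n = 3 each; -0.49, adjusted p = 2.89e-06, limma). FER averaged 243 ± 3.87 FPKM in lon1-1 and 276 ± 1.93 FPKM in wt (-0.18, adjusted p = 0.000258). In both genes all lon1-1 libraries lay below wt. RALF33 averaged 49.9 ± 2.02 FPKM in lon1-1 and 62.1 ± 3.37 FPKM in wt (-0.31, adjusted p = 0.00014). LLG1 averaged 126 ± 1.55 FPKM in lon1-1 and 145 ± 1.2 FPKM in wt (-0.20, adjusted p = 9.28e-05). RALF1 was higher (0.16) and RALF22 was not called (0.02).

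Root hair genes were mostly higher beside the extensins. Of 8 root hair markers, 7 were higher and none lower (87.5% higher, against 44.7% of all tested genes), and their summed FPKM was 201.0 to 207.1 in lon1-1 and 97.3 to 104.2 in wt. The largest changes were those of the peroxidase-family genes RHS19 (1.25) and AT4G26010 (1.12) and of the root hair expansin EXPA7 (0.99), and MRH1 was the marker that did not pass (0.07). Of 6 tested transcription factors of root hair growth, 5 were higher and 1, LRL1, was lower. These were 83.3% and 16.7%, against 44.7% and 32.3% of all tested genes. RHD6, RSL2 and LRL3 had log2 fold changes of 1.51, 1.51 and 1.5, with levels of 6.9 ± 0.352, 5.58 ± 0.406 and 21.0 ± 0.459 FPKM in lon1-1 and of 1.77 ± 0.312, 1.31 ± 0.101 and 6.76 ± 0.26 FPKM in wt (SD, n = 3 each). Of 7 tested markers of other root cells, 3 were higher and 3 lower (42.9% each, against 44.7% and 32.3% of all tested genes). Higher were WER (1.35), PYK10 (0.72) and GL2 (0.56), and lower were CASP1 (-0.82), SHR (-0.46) and PHT1-1 (-0.10). The change of WER was above that of every root hair marker. The whole list of other root cells summed to 5133.3 to 5413.0 FPKM in lon1-1 and 3300.3 to 3550.3 FPKM in wt, most of it PYK10. Of 11 tested xylem markers, 3 were higher and 5 lower (27.3% and 45.5%, against the same 44.7% and 32.3%). Their sums were 116.9 to 124.3 FPKM in lon1-1 and 158.0 to 164.2 FPKM in wt. Whether shares of cell types had a part in the extensin values was not tested.

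**Figure D5:**
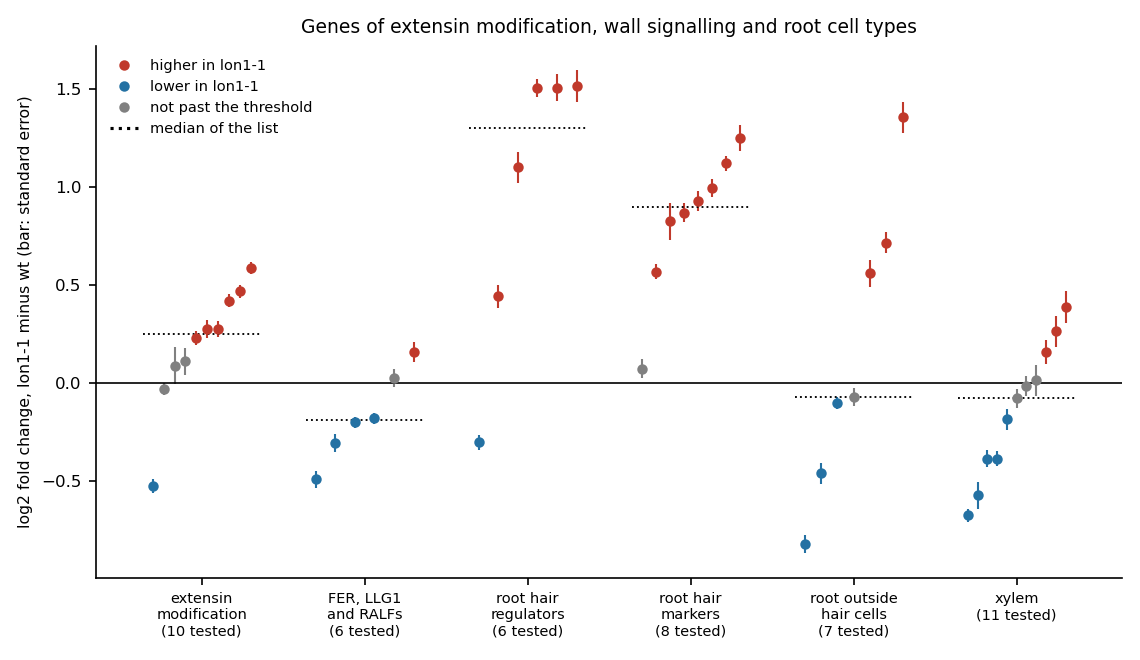
Log2 fold change (lon1-1 minus wt) with its standard error for the tested genes of 6 lists, coloured by the limma call, with a dotted line at each list's median. Root hair regulators and markers lie mostly above 0.8, genes of extensin modification between -0.53 and 0.59, and FER, LLG1 and RALF genes mostly below 0.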

How the data were processed

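The deposited table gives FPKM per gene and library, computed by the authors, to 2 decimals. The submitters' processing notes list HISAT2, Bowtie2, RSEM and TAIR10, with no version or role. All 44279 RefSeq transcript accessions in the table occur, with their versions, in the TAIR10.1 annotation used here for names, positions and sequence. Terms were matched in the table's annotation columns, the Biological Process term exactly. The members, classes and gene lists were chosen with earlier results of these data known.

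Because the values are FPKM, genotype was tested as the only term in limma 3.58.1 (R 4.3.3; eBayes with trend) on log2(FPKM + 1) of all genes reaching 1 FPKM in 3 or more of the 6 libraries. P-values were adjusted by the Benjamini-Hochberg method over all 18308 tested genes. The procedure was also run on simulated data with few changed genes and independent noise. Those settings differ from these data and do not cover deviations that many genes of a library share. Named are structural members with a mean of at least 5 FPKM in either genotype, and the leading called genes of each list. Among other members at that level, those with the 12 largest called changes are named. Members named beyond this are low, uncalled or of smaller change, and are given with levels or log2 fold changes. Their naming, like that of further list genes, followed sight of the values. The table holds no counts. Low FPKM values fall on steps worth 1 fragment each, which gave the depth once 170 bases were taken off transcript lengths; 92.9 to 97.4% of low values then came within 0.15 of whole fragments. Codon counts and shared 100-base stretches come from the longest RefSeq coding sequence or transcript of each gene. Alternatives covered pseudocounts, filters, scalings, the test, each library left out, the replicate block and the reading of the terms.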

Additional observations from a re-analysis of the deposited data

How the results depend on the processing

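For 32 named genes under 16 alternative settings, 485 of 512 log2 fold changes kept their direction and their side of the threshold, 16 lost the call, 4 gained it and 7 changed sign. The sign changes were in genes that did not pass: AT2G43150 stood at -0.0415 with median-ratio scaling, at -0.0009 with upper-quartile scaling, at -0.20 without lon1-1 B and at -0.02 without wt B, and LRX3 stood at 0.07 without lon1-1 A, 0.11 without lon1-1 C and 0.07 without wt C. With each library left out in turn, AT2G43150 ranged from -0.20 to 0.206 and LRX3 from -0.20 to 0.11, and the cause was not tested. Tested with treat against a 1.5-fold change, limma called 17 members higher and 1 lower, and 16.0% of all tested genes. Of the structural genes, 13 were then higher and 1 was lower, and EXT4, GRP5, AT2G15880 and PRP2 lost the call. Without a filter on low values the median log2 fold change of the members was 0.29, where more low genes entered. With a mean of at least 1 FPKM as the filter, 1 structural gene was lower. With the Molecular Function term alone, 28 genes gave 17 higher, 2 lower and a median of 1.16, a set that is smaller by construction. A wider reading of the Biological Process term gave 59 genes with 31 higher and 7 lower.

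Leaving out each library in turn gave 28 to 29 members higher, 4 to 6 lower, a median of 0.42 to 0.57, 16 to 17 structural genes higher and 2 to 4 lower. The highest count of structural genes lower, 4, came without lon1-1 B. The shared letters A, B and C did not pair the libraries: deviations of same-letter libraries correlated at 0.0604, 0.0171 and -0.0318. With the letter as a replicate block 29 members were higher and 5 lower, and AT4G18670 was called (adjusted p = 0.0467, limma).

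Fragment counts were not given, so intervals from counting cannot be set, and at the depth estimated here differences among genes under 1 FPKM were poorly resolved. Libraries of a genotype lay further apart in proline-rich transcripts than over all tested genes, which limits the precision of every extensin value. The 3 libraries per genotype limit the rest.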
